A study of Mus musculus with 4 samples.

Results

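The 35 genes described here are a set of type I interferon response genes, the transcripts that cells make after interferon alpha or beta binds its receptor. They were taken by symbol from 51912 Ensembl genes in RNA sequencing of long-term haematopoietic stem cells (LT-HSCs), and all 35 were found. The study asked which genes Fam122a regulates in these cells, which rest in the marrow and can renew all blood. It compared 2 wild-type (WT) libraries with 2 Fam122a knockout (KO) libraries, each from RNA of sorted cells pooled from 3 C57BL/6 mice aged 8 to 12 weeks. The cells of both groups were gated as LSK (lineage-negative, Sca-1 and c-Kit positive), CD34- and Flk2-. Treatment was not part of the labels. For the allele, the promoter of any Cre and the use of littermates, the sources used here give nothing.

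Interferon alpha and beta bind the receptor chains IFNAR1 and IFNAR2, and the kinases TYK2 and JAK1 then activate STAT2, among other factors. With IRF9 it forms part of a complex that binds the interferon-stimulated response element and switches on a broad set of antiviral genes, some of which encode sensors and transcription factors of the pathway itself. In the bone marrow, type I interferon is known to push dormant stem cells into division, and stem cells are known to keep part of the programme on without infection.

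Expression was deposited as 1 value per feature, taken here as FPKM (fragments scaled to transcript length and library size), so that levels can be compared between genes per length. Fam122a (ENSMUSG00000074922, GRCm38 chromosome 19, 24476502 to 24477356, minus strand) was listed at 0 in both KO libraries, against 18.39 and 7.46 FPKM in WT. At the implied depths, 3 fragments would have given 0.727 and 0.832 FPKM in KO.

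WT replicate 2 was unlike the rest. Over 20433 genes its log2 values had a Pearson correlation of 0.0637 with WT replicate 1 and -0.185 and -0.183 with KO, against 0.968 within KO and 0.852 and 0.845 between WT replicate 1 and KO. Its implied depth was 2540000 fragments, against 4280000 in WT replicate 1 against 6820000 and 5960000 in KO. Ribosomal protein genes were at a median of 13.07 FPKM in it, against 299.8 to 436 FPKM elsewhere. Loci without a gene name held 53.9% of its summed FPKM, 9.14% of that of WT replicate 1, and 1.74% and 1.81% of that of KO. The median of coding genes with a span over 16 times the exonic length was 0.92 and 1.02 FPKM in KO but 7.22 in WT replicate 1 and 27.6 in WT replicate 2, so WT replicate 1 also had raised values there. The KO libraries were therefore compared with WT replicate 1, and WT replicate 2 is shown apart. With 1 WT library, the test takes its spread from the KO pair and assumes that WT varies as KO does.

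Of 15 stem cell markers, none was at 0 in WT replicate 1 or KO, and their summed FPKM was 616 in WT replicate 1 against 633 and 629.9 in KO. Of 14 tested, 7 lay above and 5 below WT replicate 1 in both KO libraries (40.1% and 46.2% of all genes). The markers summed to 483 FPKM in WT replicate 2, where Procr, Ly6a and Tal1 were at 0. Mecom (253.65 FPKM there, 46.76 in WT replicate 1), Fgd5, Mllt3, Ctnnal1, Mycn and Hoxb5 were higher there than in WT replicate 1, and the rest lower. Cd34, which the gate excludes, was at 179 FPKM in WT replicate 1 and 18.2 in WT replicate 2, with 87.7 and 62.1 in KO. Flt3, which encodes Flk2 and is gated out too, was at 26.24 and 16.09 FPKM in WT replicates 1 and 2, and its KO values of 36.18 and 24.73 lay on both sides of WT replicate 1. Markers of other cells were also read. The 14 neutrophil genes summed to 18.7% of the Ensembl total in WT replicate 1 and 9.63% and 8.53% in KO, with 13 of 14 lower in both KO libraries than in WT replicate 1. The 12 erythroid genes went the other way, at 5.44% of the total in WT replicate 1, 7.33% and 9.97% in KO, with 11 of 12 higher in both KO libraries. Of all genes tested, 46.2% lay below and 40.1% above WT replicate 1 in both KO libraries, and 12.9% were called lower by limma. Of 8 stromal and endothelial genes tested, 2 were called lower by limma, Kitl (50.92 FPKM in WT replicate 1, 32.04 in WT replicate 2, then 1.58 and 1.3 in KO, adjusted p = 0.0301) and Col3a1 (2.36, 0.76, 0.03 and 0.09 FPKM, adjusted p = 0.0178). Of these 8 genes, 5 lay below WT replicate 1 in both KO libraries, and 3 (Col1a2, Pecam1 and Tie1) lay above it. The part of these other cell types in the results below was not tested. In bulk RNA, fewer cells of a type and less RNA per cell cannot be told apart.

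The response element that the STAT2 and IRF9 complex binds was visible in the promoters of part of the set, and 5 of these are printed because they show the spacing of the element in genes with different expression below. Irf1 is printed for another element. Promoter windows from RefSeq (GRCm38.p6) were at hand for 26 of the 35 genes. The core, GAAA and GAAA with any 2 bases between them, or TTTC and TTTC so spaced on the other strand, lay within 250 bases before the start in 8 of 29 windows (27.6%), against 978 of 32851 windows of all genes (2.98%). It was in Bst2, Ifit1, Ifit3, Isg15, Oas1a, Oas3, Rsad2 and Stat2, and 5 of these held 2 or more matches, some overlapping. The gamma-activated site TTCNNNGAA, a second element of interferon signalling that reads alike on both strands, lay in 5 of 29 windows (17.2%), against 7.02% of all windows. These were the windows of Bst2, Eif2ak2, Ifit2, Irf1 and Oas1a. A match is a description of letters and not a shown binding site. The sequences run 5′ to 3′ along the gene's strand, with core matches in capitals in the first 5 and the gamma-activated site in capitals in Irf1.
Isg15, chr4:156200855-156200916, minus strand: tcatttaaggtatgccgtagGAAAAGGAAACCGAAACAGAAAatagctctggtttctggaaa
Ifit1, chr19:34640765-34640833, plus strand: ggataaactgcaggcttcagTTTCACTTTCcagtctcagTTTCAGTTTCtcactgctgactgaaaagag
Ifit3, chr19:34583353-34583436, plus strand: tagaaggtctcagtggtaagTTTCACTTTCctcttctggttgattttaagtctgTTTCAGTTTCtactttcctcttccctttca
Bst2, chr8:71537567-71537622, minus strand: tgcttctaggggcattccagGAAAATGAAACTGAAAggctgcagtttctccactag
Stat2, chr10:128270256-128270305, plus strand: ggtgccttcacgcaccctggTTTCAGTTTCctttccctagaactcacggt
Irf1, chr11:53769904-53769952, plus strand: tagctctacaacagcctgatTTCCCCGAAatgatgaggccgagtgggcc

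In Isg15, 3 overlapping matches form an unbroken run, and the nearest begins 66 bases before the start. In Ifit1 and Ifit3, the same pair of cores is split by 9 and 24 bases. Stat2 has a single core, which begins 222 bases before its RefSeq start but 283 bases before its GENCODE start. Its window is the only 1 of 29 that shared no stretch with a GENCODE transcript of the gene.

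The antiviral genes were on in both genotypes, and their differences between genotypes ran both ways. None of the 34 genes tested passed the limma test between KO and WT replicate 1 (adjusted p under 0.05), in either direction. Over all 16580 genes, 0.814% were called higher and 12.9% lower in KO. At an unadjusted p under 0.05, 4 of the 34 were higher (11.8%, against 11.9% of all genes) and 1 was lower (2.94%, against 23.3%). The 4 were Irf1, Trim25, Irf9 and Stat2, and the 1 was Rtp4. In 15 genes both KO libraries lay above WT replicate 1 (44.1%, against 40.1% of all genes), in 11 both lay below (32.4%, against 46.2%), and in 8 the KO libraries lay on both sides. The higher share is thus near the background.

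The log2 difference, KO minus WT replicate 1 on the log2(FPKM + 1) scale, ran from -1.02 to 1.35 with a median of 0.08, against -0.06 for all genes. The ratio of the KO mean to WT replicate 1 lay within 1.5-fold either way in 25 of 35 genes (71.4%), against 43.7% of all genes tested. The 2 groups were not matched for level. A filter of 5 FPKM kept 31 of the 34 tested genes of the set, but 11321 of 16580 genes. The 35 also include Mx2, which was not tested. Summed over the 35 genes, FPKM was 2549 in WT replicate 1 and 190.2 in WT replicate 2, with 2187 and 1809 in KO. Most of that sum was Ifitm3, and without it the sums were 725, 187.6, 795 and 773. The median gene rested on about 86.8 fragments in WT replicate 1 and 147.7 and 144.1 in KO, but only 4.9 in WT replicate 2, so values of the latter carry wide counting error. These fragment numbers are rough, since they use the median annotated transcript length.

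**Figure D1:**
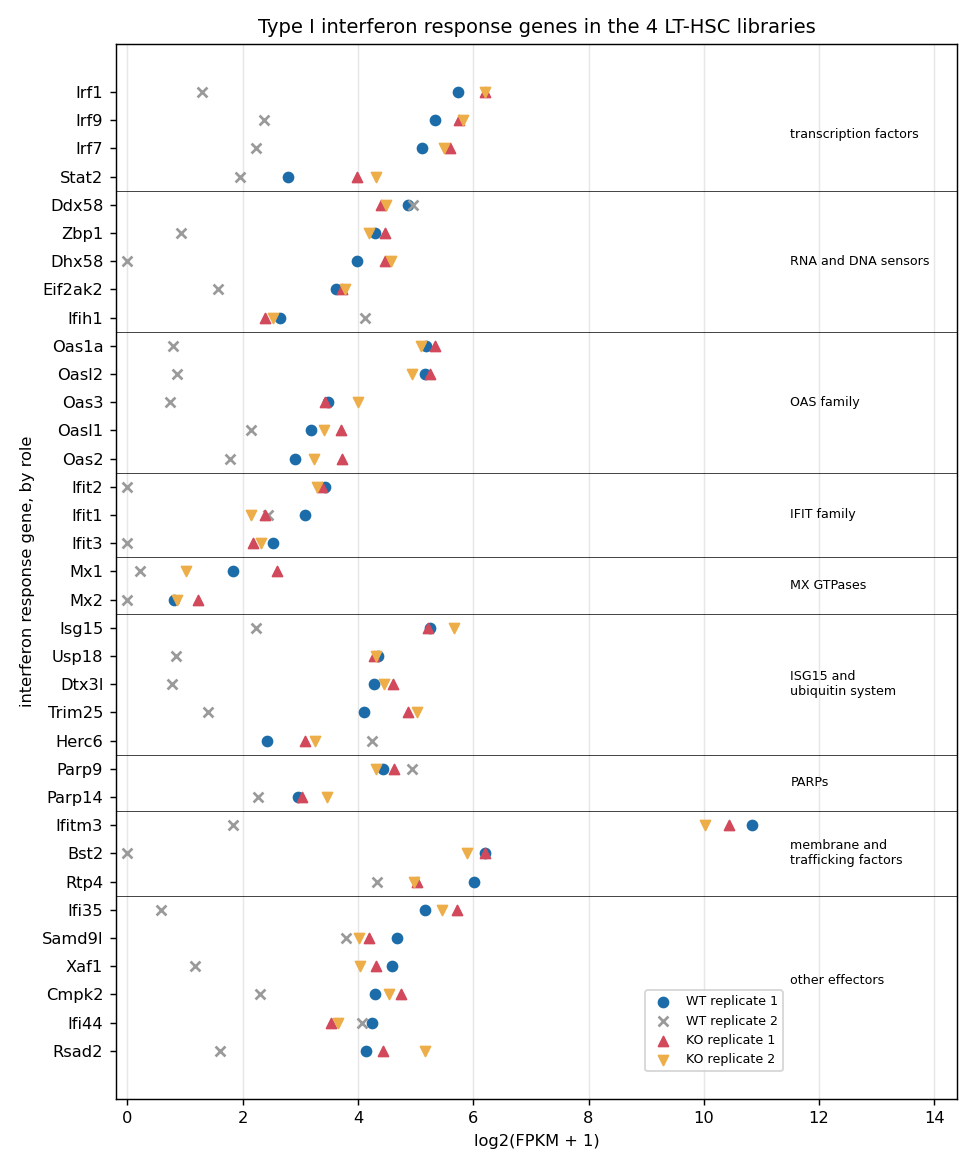
Level of each of the 35 genes in the 4 libraries, as log2(FPKM + 1) on the horizontal axis, grouped by role. WT replicate 1 and the KO libraries sit close together for most genes, while WT replicate 2 is far to the left except in genes such as Ddx58, Ifih1, Herc6 and Parp9.

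The 4 transcription factors were all higher in both KO libraries than in WT replicate 1, as were 40.1% of all genes. Their median log2 difference was 0.45, but none passed the test. Stat2 encodes part of the interferon-activated complex (chromosome 10, 128270559 to 128292849, plus strand). It was at 5.92 FPKM in WT replicate 1 and 2.88 in WT replicate 2, with 14.72 and 18.93 in KO. Stat2 rested on roughly 14.7 fragments in WT replicate 1, where the set's median was 86.8, and on 58.2 and 65.4 in KO. Its KO mean was 2.84 times WT replicate 1, the widest upward ratio of the set (log2 difference 1.35, SE 0.26, 95% interval 0.16 to 2.55, limma adjusted p = 0.126).

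Irf9, which brings DNA binding to that complex, was at 39.56 FPKM in WT replicate 1 and 4.15 in WT replicate 2, with 53.02 and 55.42 in KO (0.44, SE 0.08, limma adjusted p = 0.114). It shares 123 exonic bp with Rnf31 on the same strand, so their reads may be partly exchanged. Irf1, an activator that also serves interferon gamma and lies on chromosome 11 (53770014 to 53778374, plus strand), was at 52.47, 1.46, 72.52 and 72.32 FPKM in the same order. The KO values were nearly alike, and the log2 difference was 0.46 (SE 0.06, interval 0.18 to 0.73, limma adjusted p = 0.0893, or 0.0436 with no filter on low values). With no filter, 761 of 30258 genes were called higher, against 135 of 16580 in the main fit. Irf7, the regulator that amplifies interferon alpha production, was at 33.73, 3.72, 47.67 and 44.14 FPKM (0.43, SE 0.10, limma adjusted p = 0.145). It shares 45 exonic bp with Phrf1 on the opposite strand, and the kit does not mark strand. All 4 differences kept their sign under each of the scalings tried.

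The 5 sensors of viral nucleic acid were mixed, with 2 above and 2 below WT replicate 1 in both KO libraries (40.1% and 46.2% of all genes). Ddx58, which encodes the RNA sensor RIG-I, was at 28.34 FPKM in WT replicate 1 and 29.99 in WT replicate 2, with 20.04 and 21.29 in KO (-0.44, SE 0.11, limma adjusted p = 0.157). Both KO libraries lay below both WT libraries. Dhx58, the RIG-I relative LGP2 that tunes RNA sensing, went the other way, at 14.76 and 0 FPKM in WT and 21.23 and 22.73 in KO (0.54, SE 0.12, limma adjusted p = 0.144). Ifih1, the RNA sensor MDA5, was at 5.23 FPKM in WT replicate 1 against 4.25 and 4.78 in KO, but at 16.44 in WT replicate 2. Its difference of -0.18 turned positive with equal Ensembl totals, quantile normalization and the subtraction described below.

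Eif2ak2, the kinase PKR that halts translation on viral RNA, was at 11.27 FPKM in WT replicate 1 against 12.15 and 12.7 in KO (0.13, interval -0.57 to 0.83). Zbp1, a sensor of Z-form nucleic acid linked to cell death, was at 18.66 FPKM in WT replicate 1 against 21.16 and 17.17 in KO. Its KO values lay on both sides of WT (0.03, interval -0.92 to 0.98).

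The oligoadenylate synthetase (OAS) family, whose product activates RNase L to cut RNA, had 4 positive differences of 5 as deposited and a median of 0.23, although Oasl2 turned positive with equal totals and Oas1a negative after quantile normalization. Oas1a was at 35.23 FPKM in WT replicate 1 and 0.72 in WT replicate 2, with 39.45 and 32.96 in KO (0.03, interval -0.76 to 0.83), and Oasl2 at 34.83, 0.81, 37.21 and 29.72 (-0.06, interval -1.03 to 0.90). In both, the KO libraries fell on either side of WT. Oas2, at 6.49 FPKM in WT replicate 1 against 12.18 and 8.42 in KO, and Oasl1, at 8.1 and then 12.1 and 9.58, were above WT in both KO libraries. Their intervals ran from -1.03 to 2.17 and from -0.79 to 1.54. Oas3 was at 10.2 FPKM in WT replicate 1 against 9.73 and 15 in KO. Reads of Oas1a may be split with near copies such as Oas1g.

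The 3 IFIT genes encode proteins that bind foreign RNA and block its translation. As deposited, all 3 were lower in both KO libraries than in WT replicate 1, as were 46.2% of all genes. Their median was -0.29, but only Ifit1 kept a negative sign under each scaling. Ifit1 was at 7.47 FPKM in WT replicate 1 and 4.41 in WT replicate 2, with 4.26 and 3.42 in KO. The log2 difference was -0.81 (SE 0.24, interval -1.90 to 0.28, limma adjusted p = 0.185). Ifit2 was at 9.71 FPKM in WT replicate 1 against 9.44 and 8.79 in KO, a difference of -0.08, and Ifit3 at 4.78, then 3.51 and 3.96, a difference of -0.29. Both were at 0 in WT replicate 2. Ifit2 turned positive when libraries were scaled to equal Ensembl totals or quantile normalized, and Ifit3 under the latter. Ifit3 and Ifit1 have the near copies Ifit3b and Ifit1bl1, with which reads may be split.

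The MX GTPases, which trap viral nucleocapsids, were the lowest of the set in WT replicate 1. Mx1 was at 2.57 FPKM in WT replicate 1 and 0.16 in WT replicate 2, with 5.04 and 1.03 in KO, and the spread within KO was so wide that its log2 difference (-0.03) had an interval of -4.54 to 4.49. Mx2, at 0.75, 0, 1.35 and 0.81 FPKM, fell under the filter of 1 FPKM and was not tested.

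Isg15 encodes a ubiquitin-like protein that is attached to other proteins after interferon, and its promoter has the densest response element run printed above. It was at 37.03 FPKM in WT replicate 1 and 3.67 in WT replicate 2, with 36.06 and 49.89 in KO, on both sides of WT (0.19, interval -1.15 to 1.54). Usp18, the protease that removes ISG15 and also restrains IFNAR2, was at 19.4, 0.79, 18.39 and 18.79 FPKM. Its difference was among the more closely bounded ones of the set (-0.06, SE 0.11, interval -0.56 to 0.44, limma adjusted p = 0.731), and its sign turned positive with equal totals.

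Trim25 encodes the ubiquitin ligase that activates RIG-I (chromosome 11, 88999376 to 89020293, plus strand). It was at 16.16 FPKM in WT replicate 1 and 1.64 in WT replicate 2, with 28.22 and 31.52 in KO, 1.85 times WT replicate 1 on average (0.85, SE 0.13, interval 0.24 to 1.45, limma adjusted p = 0.105). Herc6, the mouse ligase that attaches ISG15, was at 4.37, 17.9, 7.5 and 8.49 FPKM. KO lay above WT replicate 1 but below WT replicate 2, and 1269 exonic bp of Herc6 also belong to the gene model Gm45193, which was at 32.96 FPKM in WT replicate 2 and at most 1.22 in the other libraries.

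Dtx3l and Parp9 encode partner proteins, a ubiquitin ligase and an ADP-ribosyl transferase, and share 458 exonic bp on opposite strands, so reads there cannot be assigned. Dtx3l was at 18.3 FPKM in WT replicate 1 and 0.71 in WT replicate 2, with 23.41 and 20.96 in KO. Parp9 was at 20.64, 29.55, 23.81 and 18.93 FPKM. The pair differed sharply in WT replicate 2 alone. Parp14, another ADP-ribosyl transferase, was at 6.74 FPKM in WT replicate 1 against 7.19 and 10 in KO (0.29, interval -1.18 to 1.77).

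The membrane and trafficking genes had the largest downward difference. Rtp4, a chaperone of membrane receptors that interferon induces (chromosome 16, 23520291 to 23614222, plus strand), was at 63.8 FPKM in WT replicate 1 and 19.04 in WT replicate 2, with 31.58 and 30.29 in KO. WT replicate 1 was 2.06 times the KO mean (-1.02, SE 0.08, interval -1.38 to -0.66), and the limma adjusted p of 0.0525 just missed the threshold. It passed with no filter (adjusted p = 0.0304), with a pseudocount of 5 (0.0464) and with quantile normalization (0.0496), and the difference was 0.67 with WT replicate 2 in place of WT replicate 1. With no filter, 9265 of 30258 genes were called lower, against 2132 of 16580 in the main fit. The annotated span of Rtp4 is 44.1 times its exonic length. It shares 296 exonic bp with the model Gm45338, at 3.4 and 7.01 FPKM in WT and 0.31 and 0 in KO.

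Ifitm3, which blocks virus entry at endosomes and is known to be high in stem cells, was the highest gene of the set in WT replicate 1 and in KO. It was at 1824 FPKM in WT replicate 1 and 2.57 in WT replicate 2, with 1392 and 1037 in KO (-0.60, SE 0.31, interval -1.99 to 0.79, limma adjusted p = 0.313). Bst2, the tether that holds budding virus, was at 72.61, 0, 73 and 58.31 FPKM, on both sides of WT (-0.15, interval -1.10 to 0.80). Reads of Ifitm3 may be split with Ifitm1 and Ifitm2.

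The 6 other effectors divided evenly, with 3 above and 3 below WT replicate 1 in both KO libraries (40.1% and 46.2% of all genes). Their median was -0.03. Rsad2, the radical enzyme viperin that makes a chain terminator, was at 16.54 FPKM in WT replicate 1 and 2.06 in WT replicate 2, with 20.6 and 34.91 in KO (0.67, interval -1.47 to 2.80). Its neighbour Cmpk2, a kinase that supplies nucleotides, was at 18.67, 3.92, 25.73 and 22.23 FPKM, and Ifi35 at 34.63, 0.49, 51.86 and 42.84. These were the 3 above WT.

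Ifi44 was at 17.93 FPKM in WT replicate 1 and 15.83 in WT replicate 2, with 10.58 and 11.65 in KO (-0.65, SE 0.16, limma adjusted p = 0.160). Samd9l, a growth-restraining gene of blood cells, was at 24.72, 12.85, 17.31 and 15.11 FPKM (-0.58, SE 0.16, limma adjusted p = 0.173). Xaf1, linked to cell death, was at 23.1, 1.25, 18.97 and 15.46 FPKM (-0.41, interval -1.35 to 0.52). These were the 3 below WT replicate 1, but Xaf1 and Samd9l in KO were above WT replicate 2.

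**Figure D2:**
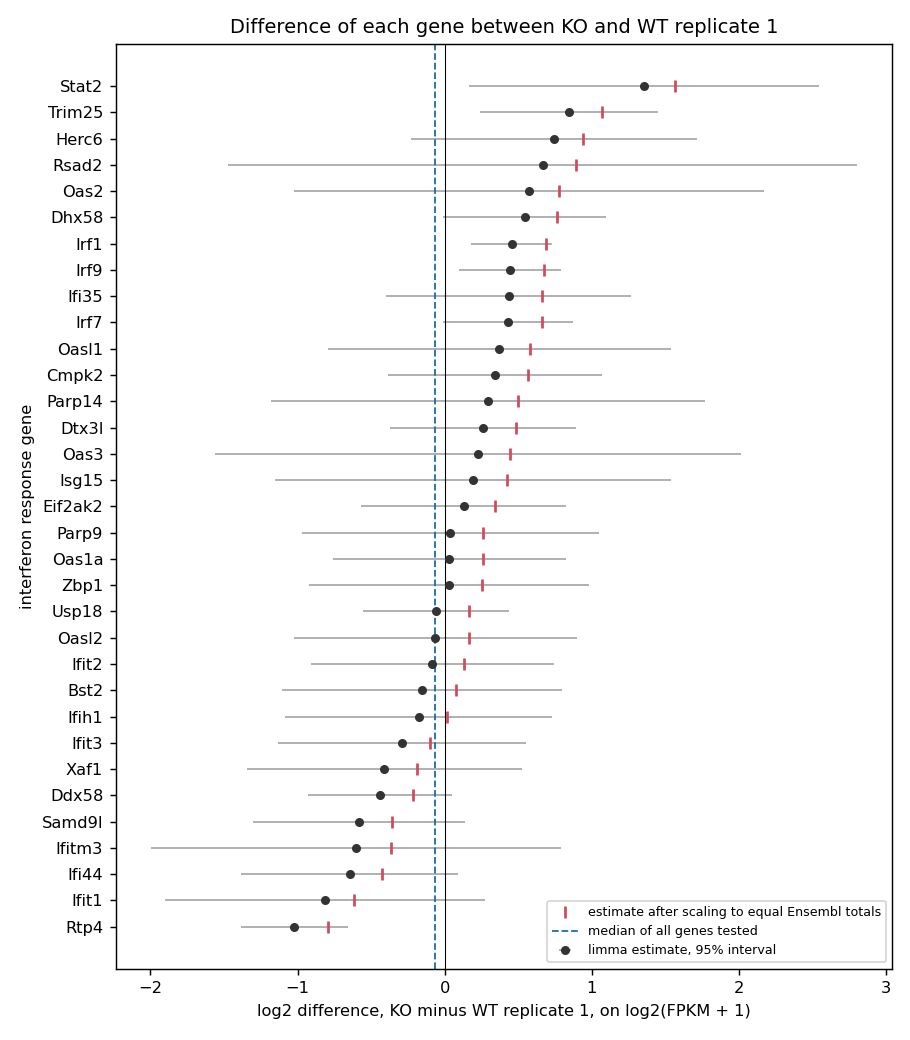
Log2 difference between KO and WT replicate 1 for 33 of the 34 tested genes, as the limma estimate with its 95% interval, with the estimate after scaling to equal Ensembl totals (red ticks) and the median of all genes tested (dashed line). Mx1 is not drawn because its interval runs from -4.54 to 4.49. Intervals of Stat2, Trim25, Irf1 and Irf9 lie above 0 and that of Rtp4 below it.

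The balance of signs depended on scaling. As deposited, 20 differences were positive and 14 negative. With equal Ensembl totals, 26 were positive and 8 negative, and the median of all genes moved by 0.23 to 0.16. The median of the set was then 0.30. Quantile normalization gave 22 and 12, with medians of 0.30 for the set and 0.17 for all genes, and called 1 gene of the set, Rtp4, lower. Relative to all genes the set's median was 0.15 higher as deposited, and 0.14 and 0.13 higher with these scalings. The sign of this gap depended on which genes were kept. With 1 FPKM in at least 2 libraries, the medians were 0.08 for the set and 0.12 for all 13848 genes. They were 0.19 and 0.10 with a filter of 5 FPKM, and 0.23 and 0.09 over genes of short span. Of all genes called, 5.96% were higher as deposited and 24.0% after quantile normalization. Oasl2 and Bst2 were among the genes that turned positive with equal totals, and Ifit1, Rtp4, Ifi44, Samd9l, Ddx58, Xaf1 and Ifitm3 stayed negative in all scalings.

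The difference went with the level in WT replicate 2. At 10 FPKM or more there, a limit chosen after the values were seen, lay Rtp4, Ddx58, Ifi44, Samd9l, Ifih1, Herc6 and Parp9, of which 2 had positive and 5 negative differences (median -0.44). Of the other 27 tested, 18 were positive and 9 negative (median 0.23). The same split over all genes gave medians of -0.58 for 6806 genes and 0.18 for 9774. When a share of the WT replicate 2 profile (0.138 of it, scaled on the unnamed loci) was subtracted from WT replicate 1, also chosen after seeing the data, the median of the set was 0.22 and that of all genes 0.27. The set was then 0.04 below all genes, where it had been above, and 20.4% of all genes called were higher. Under it, Ifih1 turned positive (0.47) and Ddx58 was at -0.22, while Rtp4 was still at -0.96.

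**Figure D3:**
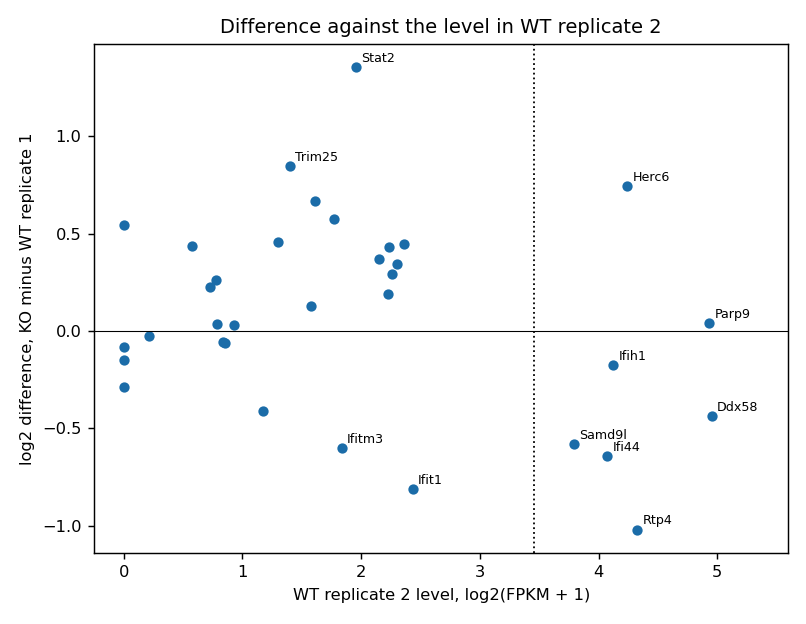
Log2 difference between KO and WT replicate 1 (vertical axis) against the level in WT replicate 2 as log2(FPKM + 1) (horizontal axis) for the 34 tested genes. The dotted line marks 10 FPKM, and 5 of the 7 genes to its right lie below 0.

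The response element core is set beside the differences as a description. The 8 with the core had a median difference of 0.11, with 5 positive (0.03 and 4 of 7 without Stat2), the 18 searched without it 0.20, with 10 positive, and the 8 tested genes with no window 0.03. Stat2, with a single core, and Ifit1, with a pair, lay at opposite ends.

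The ligands were nearly silent. Of 20 type I and III interferon genes, 16 were at 0 in WT replicate 1 and 19 in each KO library, none reached the filter, and they summed to 3.25 FPKM in WT replicate 1 against 0.90 and 0.29 in KO. In WT replicate 2 they summed to 25.87 FPKM, of which Ifnb1 (interferon beta) made 11.88. Ifnb1 was at 1.39 FPKM in WT replicate 1 and 0 in KO, and Ifnab at 1.15, 2.83, 0 and 0.

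The receptor and its kinases were expressed in both genotypes. Of the receptor chains and kinases Ifnar1, Ifnar2, Tyk2 and Jak1 none passed, and all but Ifnar2 lay above WT replicate 1 in both KO libraries (40.1% of all genes did). Their differences were positive as deposited, and that of Ifnar2 was negative (-0.08) after quantile normalization. Ifnar1, the signalling chain of the receptor, was at 22.62 FPKM in WT replicate 1 and 2.62 in WT replicate 2, with 36.58 and 37.42 in KO (0.69, SE 0.08, interval 0.32 to 1.06, limma adjusted p = 0.0801, or 0.0373 with no filter). As given for Irf1, a larger share of all genes was called with no filter. Ifnar2, the other chain, was at 88.78, 0.84, 92.83 and 88.35 FPKM (0.03, interval -0.30 to 0.36). The receptor chains thus gave unlike differences, although the difference between them was not tested.

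Tyk2, the kinase of IFNAR1, was at 14.96, 15.49, 23.86 and 27.89 FPKM (0.75, limma adjusted p = 0.145). Jak1, the kinase of IFNAR2, was at 70.06, 11.74, 103.2 and 87.11 FPKM (0.43, limma adjusted p = 0.235).

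Upstream of interferon, 1 of 13 tested adaptors, kinases and factors passed, and it rose, where 0.814% of all genes were called higher. Irf8, a transcription factor of myeloid, dendritic and B cells, was at 45.22 FPKM in WT replicate 1 and 7.53 in WT replicate 2, with 92.55 and 92.15 in KO (1.01, SE 0.06, interval 0.74 to 1.28, limma adjusted p = 0.0373). The call ended with a filter of 5 FPKM (adjusted p = 0.0590), with 1 FPKM in at least 2 libraries (0.0720), after the subtraction (0.0558) and with all 4 libraries fitted (0.418). Markers of cells that use Irf8 moved unevenly. The 12 dendritic genes summed to 236 FPKM in WT replicate 1 against 178 and 182 in KO, the 13 monocyte and macrophage genes to 16129, then 11343 and 8782, and the 12 B cell genes to 5851, then 4134 and 6592. None of these markers was at 0 in WT replicate 1 or KO. Of the 12 B cell genes 8 were above WT replicate 1 in both KO libraries, of the 13 monocyte and macrophage genes 7 were, and of 11 dendritic genes tested 2 were and 7 were below. Of all genes, 40.1% were above and 46.2% below. The part of these cells in the rise of Irf8 was not tested.

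Cgas, the DNA sensor that makes cyclic GMP-AMP (chromosome 9, 78430526 to 78443237, minus strand), showed the widest difference of the pathway genes. It was at 64.96 FPKM in WT replicate 1 and 37.39 in WT replicate 2, with 5.59 and 3.67 in KO, so that WT replicate 1 was 14.0 times the KO mean. The KO libraries lay far below both WT libraries (-3.57, SE 0.35, interval -5.15 to -1.99), but the limma adjusted p of 0.0662 did not pass. It passed with a pseudocount of 5 (limma adjusted p = 0.0368) and with 1 FPKM in at least 2 libraries (0.0465). With WT replicate 2 in place of WT replicate 1, the difference was -2.79.

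Mavs, the mitochondrial adaptor of RIG-I and MDA5, was at 10.69, 0, 25.27 and 24.74 FPKM (1.15, limma adjusted p = 0.0643). Ikbke, a kinase that activates IRF3 and IRF7, was at 10.62, 0.70, 19.87 and 19.94 FPKM (0.85, limma adjusted p = 0.0954), and Irf3 itself at 20.33, 0.33, 65.69 and 40.22 (1.30, limma adjusted p = 0.212). Traf3, an adaptor, was at 16.88, 56.18, 7.89 and 10.37 FPKM (-0.83). Both KO libraries thus lay above WT replicate 1 for Mavs, Ikbke and Irf3, which were at 0.70 FPKM or less in WT replicate 2. For Traf3 they lay below both WT libraries.

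Among 10 negative regulators none passed, with 4 above and 3 below WT replicate 1 in both KO libraries (40.1% and 46.2% of all genes). Their median was 0.10. Adar, which edits self RNA so that MDA5 does not sense it, was at 16.42, 2.4, 30.11 and 33.83 FPKM (0.92, interval 0.30 to 1.53, limma adjusted p = 0.0985). Trex1, which removes cytosolic DNA, was at 88.12, 1.71, 60.19 and 47.53 FPKM (-0.71, interval -1.70 to 0.28). Socs3, an inhibitor of JAK kinases, was at 28.3, 1.44, 49.08 and 34.46 FPKM (0.52, interval -0.94 to 1.98).

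A wider list of 59 other interferon-stimulated genes was evenly split. Of 55 tested, 0 passed, and 4 were higher and 4 lower at an unadjusted p under 0.05 (11.9% and 23.3% of all genes). In both KO libraries 24 lay above and 25 below WT replicate 1 (40.1% and 46.2% of all genes), and the median was 0.01. As deposited 28 were positive and 27 negative, and with equal totals 34 and 21. Daxx was at 23.54, 0.46, 37.12 and 38.84 FPKM (0.67, limma adjusted p = 0.0881) and Lgals3bp at 111, 5.06, 167 and 159 (0.55, limma adjusted p = 0.0899). Ifi27l2a, at 430.5, 0, 288 and 259.8 FPKM (-0.65), and Ifi47, at 62.82, 0, 47.08 and 44.14 (-0.45), were below WT replicate 1 in KO.

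Of 19 interferon gamma targets tested none passed, and 2 were higher and 0 lower at an unadjusted p under 0.05 (11.9% and 23.3% of all genes). In both KO libraries 6 lay above and 8 below WT replicate 1 (40.1% and 46.2% of all genes), with a median of 0.05. Ciita, the class II activator, was at 0.79, 2.06, 1.46 and 1.34 FPKM. The receptor chain Ifngr2 was at 46.79, 0.87, 29.27 and 25.05 FPKM (-0.77, limma adjusted p = 0.133), and Ifngr1 at 161, 2.96, 179 and 157 (0.06). Gbp5, a GTPase, was at 6.48 and 24.04 FPKM in the KO libraries, which differed more from each other than the first did from WT replicate 1 (3.70 FPKM).

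In class I antigen presentation, 2 of 11 genes passed and both rose, where 0.814% of all genes were called higher. They encode the paired subunits of the transporter that carries peptides into the endoplasmic reticulum. Tap1 was at 41.79 FPKM in WT replicate 1 and 0 in WT replicate 2, with 89.58 and 88.51 in KO (1.07, SE 0.06, interval 0.80 to 1.35, limma adjusted p = 0.0359). Tap2 was at 51.91, 0.26, 96.43 and 94.46 FPKM (0.87, SE 0.06, interval 0.59 to 1.15, limma adjusted p = 0.0471). The KO pairs were tight and lay above WT replicate 1. Both genes were at 0.26 FPKM or less in WT replicate 2, so a place above that library adds little.

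Both calls ended with a filter of 5 FPKM (adjusted p = 0.0553 and 0.0726), with 1 FPKM in at least 2 libraries (0.0698 and 0.0829), after the subtraction (0.0557 and 0.0679) and with all 4 libraries (0.418 for both). That of Tap2 also ended with a pseudocount of 0.1 (0.0631), with quantile normalization (0.0576) and over genes of short span alone (0.0554). Tapbp, which bridges the transporter to class I molecules, was at 94.32, 1.09, 161.5 and 145.9 FPKM (0.70, limma adjusted p = 0.104), and H2-K1, a class I heavy chain, at 741, 16.44, 1247 and 1092 (0.65, limma adjusted p = 0.166). Psmb9, an immunoproteasome subunit, was at 82.13, 1.81, 122.9 and 115.6 FPKM (0.53, limma adjusted p = 0.0995). Erap1, the peptide trimmer, was the other way, at 34.83, 0.44, 22.9 and 22.1 FPKM (-0.61, limma adjusted p = 0.102). Over the list, 8 lay above and 3 below WT replicate 1 in both KO libraries (40.1% and 46.2% of all genes). The median was 0.53, against -0.06 for all genes. The split of 8 positive and 3 negative held under each scaling.

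**Figure D4:**
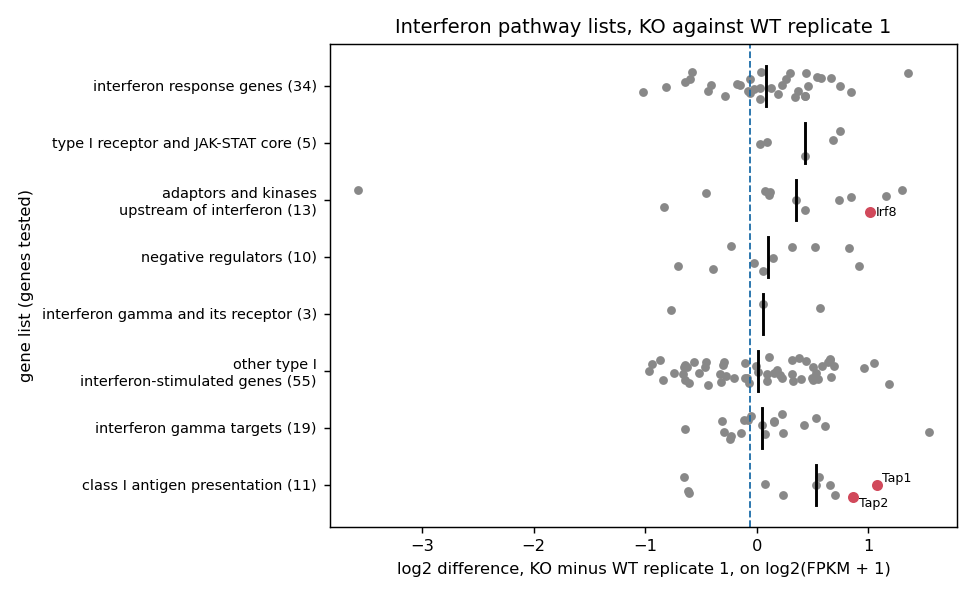
Log2 difference between KO and WT replicate 1 (horizontal axis) for each tested gene of 8 lists, with the list's median as a black bar and the median of all genes as a dashed line. Red points are the genes that passed the test, Irf8, Tap1 and Tap2, and the point far to the left is Cgas, which did not pass.

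With both WT libraries fitted, none of the 34 genes passed by limma, and none had an unadjusted p under 0.05. Of 20433 genes, 0% passed in either direction, and 0.577% were higher and 11.6% lower at an unadjusted p under 0.05. The median of the set was then 1.62. Of the genes in that fit, 4 (Ifit2, Ifit3, Dhx58 and Bst2) were at 0 in WT replicate 2. Of the 15 genes above WT replicate 1 in both KO libraries and tested, 14 were also above WT replicate 2, all but Herc6. The set summed to 190.2 FPKM in WT replicate 2 against 2549 in WT replicate 1, so a place above WT replicate 2 adds little. Of the 11 below WT replicate 1, only Ddx58, Ifi44, Ifih1 and Ifit1 were also below WT replicate 2, and the other 7 were above it.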

How the data were processed

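The deposited files list 1 value per feature without a header. The values were taken as FPKM, inferred from the values and not stated by the authors. Per the submitters' processing notes, bcl2fastq, STAR 2.7.1a, HISAT2 2.1.0, GRCm38.p5 and mm10 were used, with roles not given in the sources used here. Libraries were made with a SMART-Seq v4 kit from Trizol RNA, per the labels' protocols. Unnamed MSTRG loci (35791 of 87703 features) were left out of the tests. Symbols and coordinates came from GENCODE M21 (GRCm38). The files give no counts, and depth was implied from the steps of low values in single-exon genes, of which 79.0% to 87.3% lay within 0.1 of a whole number. It covers counting error only.

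The test of KO against WT replicate 1 was that of limma 3.58.1 in R 4.3.3 with a trend over intensity. It used log2(FPKM + 1), which understates changes of low genes. Genes needed 1 FPKM in the mean of the WT replicate 1 value and the KO mean. Benjamini-Hochberg adjustment ran over 16580 genes, and adjusted p-values under 0.05 were called. Intervals are at 95%. There was 1 residual degree of freedom (median 1.90 in total), and p-values measure only the spread between the KO pools. The members and lists were chosen with earlier results of these data known. All members may be named, with up to 6 genes of smallest p from each other list, the ligands and the receptor. One gene of the pathway lists, counted in their totals and plots, is not reported here. The motif search was chosen after seeing the data.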

Additional observations from a re-analysis of the deposited data

Results flagged for a closer look

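Signal outside the comparison was seen in the unnamed loci, which the tests left out: 2 of them were listed at 0 in WT replicates 1 and 2, yet reached at least 5 FPKM in KO replicates 1 and 2.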

How the results depend on the processing

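As deposited, 135 genes were higher and 2132 lower in KO than in WT replicate 1. The cause of the shifts below was not tested. Counts of the set above or below are to be read beside the shares of all genes, 40.1% above and 46.2% below as deposited. With equal Ensembl totals 50.3% of all genes lay above, and over short-span genes 46.7% lay above and 39.1% below. With WT replicate 2 in place of WT replicate 1, 21932 genes were tested. With all 4 libraries 0 were higher and 0 lower, 4 of the 34 tested genes of the set lay below in both KO libraries, and the set's median was 1.62. Replicate deviations in WT and KO had a correlation of 0.0393 over 20433 genes. WT replicate 2 was unlike WT replicate 1, so this cannot show whether replicate numbers paired the samples. With the replicate block 0 genes were higher and 0 lower, 0 of the set, with a median of 1.62. Leaving out WT replicate 1 (WT replicate 2 in its place) gave 7035 higher and 10109 lower, 22 and 3 of the set called, and 28 above and 6 below. Leaving out each library moved the set's median between 0.058 (without KO replicate 1) and 3.00 (without WT replicate 1), with 0.16 without KO replicate 2. Without WT replicate 1, the differences of Rtp4 (0.67) and Samd9l (0.31) reversed, as 7 of the 11 genes below WT replicate 1 lay above WT replicate 2 (also Ifit2, Ifit3, Ifitm3, Usp18 and Xaf1). With no filter there were 761 higher and 9265 lower of 30258 genes, with 1 and 1 of the set (Irf1, limma adjusted p = 0.0436, and Rtp4). The filter at 5 FPKM gave 41 and 772 (set median 0.19), and 1 FPKM in 2 libraries gave 25 and 196. A pseudocount of 0.1 gave 53 and 1160, and one of 5 gave 211 higher, with 1 of the set lower (Rtp4). Equal Ensembl totals gave 220 higher, with 23 of the set above and a median of 0.30. Quantile normalization gave 536 higher, with 1 of the set lower (Rtp4) and a median of 0.30. Genes spanning under 4 times their exonic length, 19 of the set, gave 52 and 666, 9 above, 5 below and a median of 0.23. Subtraction of the WT replicate 2 profile, chosen after seeing the data, gave 205 and 802 and a median of 0.22.

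The comparison rests on a single WT library, which shares signal from long-span genes and unnamed loci with WT replicate 2. At 1 residual degree of freedom, a missed threshold does not show that values did not differ. Members at a few FPKM in WT replicate 2 rested on few fragments.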
